A study of Arabidopsis thaliana with 12 samples.

Results

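The 6 NRAMP genes of Arabidopsis thaliana, NRAMP1 to NRAMP6, (AT1G80830, AT1G47240, AT2G23150, AT5G67330, AT4G18790 and AT1G15960) were taken by locus identifier from the 33607 genes of the deposited rosette and root tables, and all 6 have a row in both. The libraries come from wild-type accession Columbia-0 (Col-0). Polyadenylated RNA was sequenced from whole rosettes and from roots of plants grown in vitro for 10 days on complete ES medium with 1.5% sucrose and then moved either to the same medium (control) or to ES medium without Fe and with 100 µM FerroZine, a ferrous iron chelator. All were collected 72 h after the move, so that each organ has 3 control and 3 Fe-deficient libraries, 4 groups and 12 libraries in all. The labels do not say whether the 3 samples of a group were separate plates or separate growths, so p-values measure the spread between these samples only.

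NRAMP proteins are proton-coupled carriers of divalent metals such as iron and manganese, and they move metal into the cytosol from outside the cell or from an internal store. NRAMP1 lies at the plasma membrane, where it is the high-affinity manganese importer of the root and also carries iron. NRAMP2 acts in manganese supply from the trans-Golgi network. NRAMP3 and NRAMP4 sit in the vacuole membrane, act redundantly in releasing stored iron during germination, and export vacuolar manganese in leaf cells. NRAMP6 is an intracellular member studied for cadmium sensitivity. EIN2, the central membrane protein of ethylene signalling, has an N-terminal domain related to the NRAMP carriers and is given beside them.

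The coding stretch around the conserved Asp-Pro-Gly-Asn motif, which lines the metal path of NRAMP carriers, is shown for the 6 members because it separates the family into its branches. Each sequence is 60 bases of RefSeq coding sequence (genome build TAIR10.1), 5′ to 3′ on the gene's strand, with the 4 motif codons in capitals.
NRAMP1: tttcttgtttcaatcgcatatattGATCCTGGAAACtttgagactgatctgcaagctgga
NRAMP6: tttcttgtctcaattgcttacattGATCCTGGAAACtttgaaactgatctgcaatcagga
NRAMP2: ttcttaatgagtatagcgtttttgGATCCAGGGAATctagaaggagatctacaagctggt
NRAMP3: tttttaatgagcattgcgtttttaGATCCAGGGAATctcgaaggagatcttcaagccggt
NRAMP4: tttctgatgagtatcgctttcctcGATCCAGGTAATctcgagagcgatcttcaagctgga
NRAMP5: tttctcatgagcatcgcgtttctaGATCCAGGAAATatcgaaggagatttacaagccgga
Over these 60 bases NRAMP1 and NRAMP6 were identical at 53, and NRAMP2 and NRAMP3 also at 53, whereas NRAMP3 and NRAMP4 were identical at 46 and NRAMP1 and NRAMP3 at 36. The stretch lies in exon 1 of NRAMP2 (chr1:17311024-17311083), NRAMP3 (chr2:9858317-9858376), NRAMP4 (chr5:26861999-26862058) and NRAMP5 (chr4:10319370-10319429). In NRAMP1 (chr1:30375098-30375243) and NRAMP6 (chr1:5484498-5484643) it is split by the intron between exons 2 and 3. NRAMP4 is on the plus strand and the other 5 genes are on the minus strand.

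Whole coding sequences gave the same 2 branches. NRAMP1 and NRAMP6 shared 82.9% of aligned coding bases, with 11 and 13 exons. NRAMP2, NRAMP3, NRAMP4 and NRAMP5, with 3 or 4 exons, shared 70.5% to 74.3% with each other, and NRAMP3 and NRAMP4 shared 73.4%. NRAMP4 had no identical run of 31 bases with the transcript of any other gene, on either strand, so that no exact 31-base read would fit both it and NRAMP3. NRAMP1 and NRAMP6 shared a run of 41 bases, so short reads from that run cannot be told apart.

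Values are given as deposited and were read as RPKM, reads scaled to transcript length and sequencing total. No header states the unit, and the values were taken to be equalised across the 6 libraries of a table. Read depth is unknown, so the spread between 3 libraries is the measure of error. The tables were taken to be normalised separately, so tests of iron deficiency were made within an organ. Levels set across organs are descriptions. Libraries of a group correlated between 0.977 and 0.988 across tested genes on the log2 scale in both organs, and none stood apart. Among 9 root markers, 8 or 9 reached 1 RPKM in each root library and 1 to 3 in each rosette library. The 9 green-tissue markers summed to 26550 to 27900 RPKM in rosettes and to 124 to 195 RPKM in roots.

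In control plants NRAMP1 was the most abundant NRAMP transcript of both organs. It stood at 67.3 ± 2.41 RPKM (SD, n = 3) in roots and 29.7 ± 1.17 RPKM in rosettes. NRAMP4 followed, at 22.9 ± 0.369 RPKM in control roots and 19.4 ± 0.971 RPKM in control rosettes. In control roots the order went on with NRAMP2 at 16.3 ± 0.418 RPKM, NRAMP3 at 11.4 ± 1.75 RPKM and NRAMP6 at 1.28 ± 0.0702 RPKM, and no neighbours in this order overlapped. In control rosettes NRAMP6 at 13.6 ± 0.419 RPKM and NRAMP2 at 12.7 ± 0.419 RPKM did not overlap either, and NRAMP3 was lower at 7.78 ± 1.88 RPKM.

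NRAMP6 showed the widest contrast between organs. Its control mean was 10.7 times as high in rosettes as in roots, and 10 times in Fe-deficient plants, across tables taken to be normalised separately. NRAMP1 leaned the other way, with a control mean 2.26 times as high in roots. NRAMP2, NRAMP3 and NRAMP4 had control means 1.29, 1.46 and 1.18 times as high in roots. NRAMP5 is listed at 0.03 RPKM in each of the 6 libraries from rosettes. In roots it is at 0.04 RPKM in 5 libraries and at 0.13 RPKM in Fe-deficient replicate 1. These values are too low to compare, and no fold is given.

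**Figure D1:**
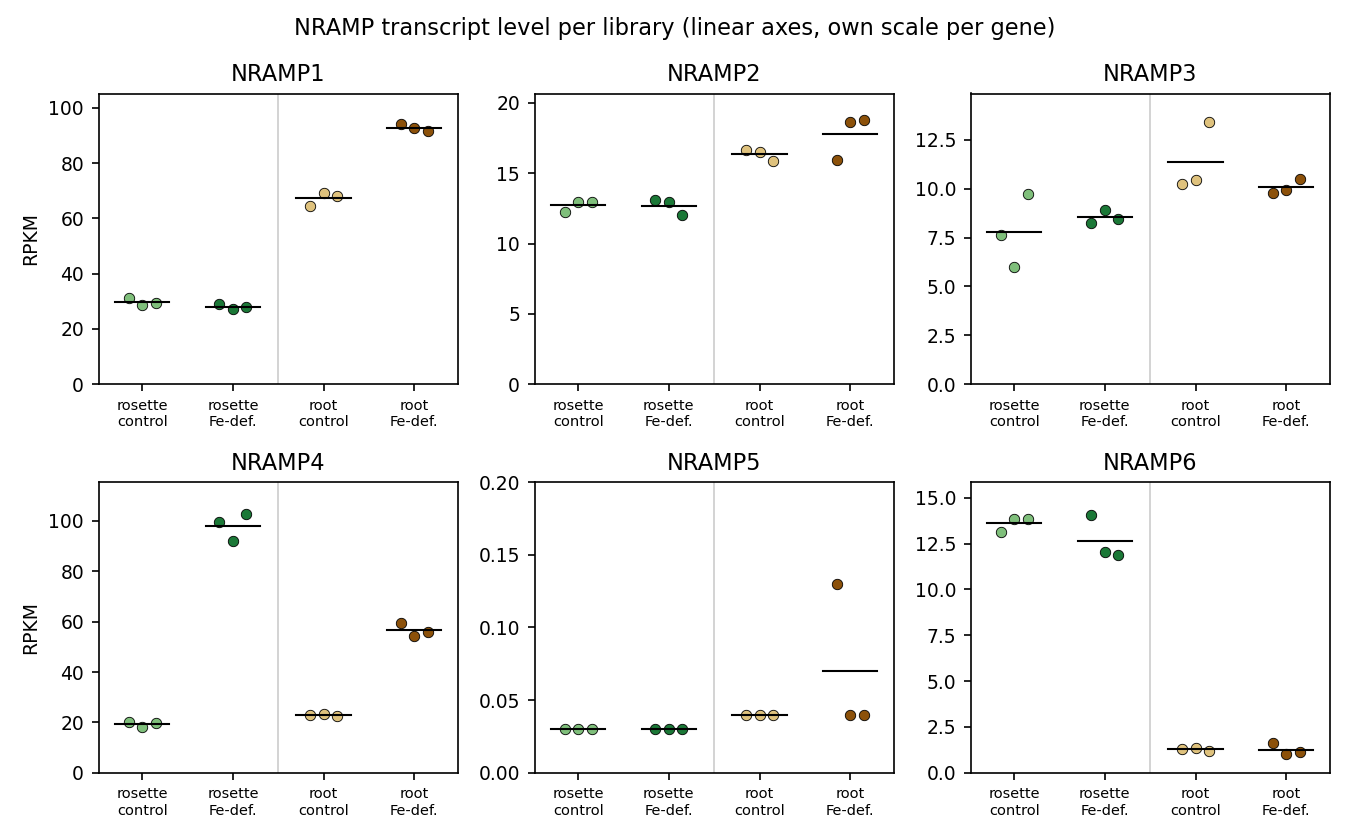
RPKM of each NRAMP gene in each of the 12 libraries, with a panel and a linear axis of its own for each gene; points are libraries and bars are means of 3. NRAMP4 lies between 92.05 and 102.69 RPKM in Fe-deficient rosettes against 18.31 to 20.07 in controls, NRAMP1 rises in roots, and NRAMP6 is near 1 RPKM in roots.

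Which NRAMP transcripts respond to iron deficiency was tested with limma on log2(RPKM + 0.5), keeping genes that average 1 RPKM or more in the organ, and a gene is called at a Benjamini-Hochberg adjusted p under 0.05. NRAMP1, NRAMP2, NRAMP3, NRAMP4 and NRAMP6 passed that filter in both organs and NRAMP5 in neither. In rosettes 1 of the 5 was called, NRAMP4, which was higher, and in roots 2 of the 5, NRAMP1 and NRAMP4, both higher. Of all genes tested, 1.96% were called in rosettes and 5.87% in roots, and 0.679% and 3.52% were called higher. The groups did not overlap for NRAMP4 in rosettes, nor for NRAMP1 and NRAMP4 in roots, where 21.4% of all rosette genes and 26.1% of all root genes did not overlap (10% and 12% in the higher direction, 11.4% and 14.1% in the lower). The members' median log2 fold change was -0.00078 in rosettes and 0.12 in roots, beside 0.0010 and -0.018 over all genes tested.

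NRAMP4 had the strongest response of the family. In control rosettes it was at 20.07, 18.31 and 19.90 RPKM, and in Fe-deficient rosettes at 99.77, 92.05 and 102.69 RPKM. Every Fe-deficient library was thus more than 4 times as high as every control library. The log2 fold change was 2.31 (SE 0.062, adjusted p 2.1e-05), a 4.95-fold rise on the log2(RPKM + 0.5) scale. By p it ranked 16 of the 19006 genes tested in rosettes, and by size of the rise 52.

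In roots NRAMP4 rose less. Control roots stood at 22.81, 23.31 and 22.59 RPKM and Fe-deficient roots at 59.49, 54.35 and 55.83 RPKM, again without overlap. The log2 fold change was 1.28 (SE 0.057, adjusted p 3.34e-05), a 2.44-fold rise, which ranked 173 by size among 19932 genes tested in roots. NRAMP4 is the member that passed a 2-fold minimum as well, in both organs, as 0.379% of the rosette genes and 1.11% of the root genes did in the higher direction. In whole organs a rise in RNA per cell and a larger share of cells that express the gene cannot be told apart.

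Whether the organs responded alike was tested through the difference of the rosette and root log2 fold changes. For NRAMP4 it was 1.02 (SE 0.084, 95% interval 0.84 to 1.2, adjusted p 1.04e-05), the larger rise being in rosettes. Across the 2 tables, taken to be normalised separately, the 4 levels of NRAMP4 ran from control rosettes through control roots and Fe-deficient roots to Fe-deficient rosettes. Neighbours did not overlap, but the order is a description, since levels were not tested between organs. The NRAMP4 mean in Fe-deficient rosettes was 1.74 times that in Fe-deficient roots, where in controls it had been 0.848 times.

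NRAMP1, the plasma membrane importer, rose in roots. It was at 64.58, 69.16 and 68.19 RPKM in control roots and at 94.08, 92.77 and 91.73 RPKM in Fe-deficient roots. The Fe-deficient libraries all lay above the controls, and the change was modest in size. The log2 fold change was 0.46 (SE 0.049, adjusted p 0.00267), a 1.38-fold rise.

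In rosettes NRAMP1 was at 31.07, 28.86 and 29.31 RPKM in controls and at 29.12, 27.29 and 27.92 RPKM under iron deficiency. These groups overlapped, and the gene was not called (log2 fold change -0.080, 95% interval -0.20 to 0.044, adjusted p 0.501). The difference between the organs was itself called, at -0.54 (SE 0.071, 95% interval -0.69 to -0.39, adjusted p 0.000583). NRAMP1 and NRAMP4 are thus the 2 of 5 members whose responses differed between organs, in opposite directions. Of the 17680 genes tested in both organs 3.48% were called, 1.39% with the more positive change in rosettes, as for NRAMP4, and 2.09% with the more negative one, as for NRAMP1.

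NRAMP1 overlaps the neighbouring gene CCR2 (AT1G80820) on the opposite strand over 132 bases, and since use of strand in counting is not stated, reads from the overlap cannot be told apart. CCR2 was at 20.7 ± 2.31 RPKM in control roots and 18.9 ± 0.907 RPKM in Fe-deficient roots, with a log2 fold change of -0.12 (adjusted p 0.516). Tissue markers are given beside this. Of 8 green-tissue markers tested in roots 3 were called lower, where 2.35% of all root genes were, and the 9 summed to 185 to 195 RPKM in control and 124 to 163 RPKM in Fe-deficient roots. That count was 0 without control replicate 2 or 3 and without the filter on low values, and 1 without Fe-deficient replicate 2 or 3. Of the 9 root markers none was called there with limma, and 3 lay at an unadjusted p under 0.05 (21.3% of all root genes did), all higher. That count of calls was 2 without Fe-deficient replicate 3, and 1 with the replicate number as a block, with array weights or with a 5 RPKM filter. PYK10 is deposited at 1 tied value in all 6 root libraries and makes up 92.5% to 94.2% of the markers' sum. The other 8, summed without it after this tie had been seen, came to 180 to 197 RPKM in control and 188 to 239 RPKM in Fe-deficient roots, and these ranges overlapped. The part of these markers in the root values was not tested.

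**Figure D2:**
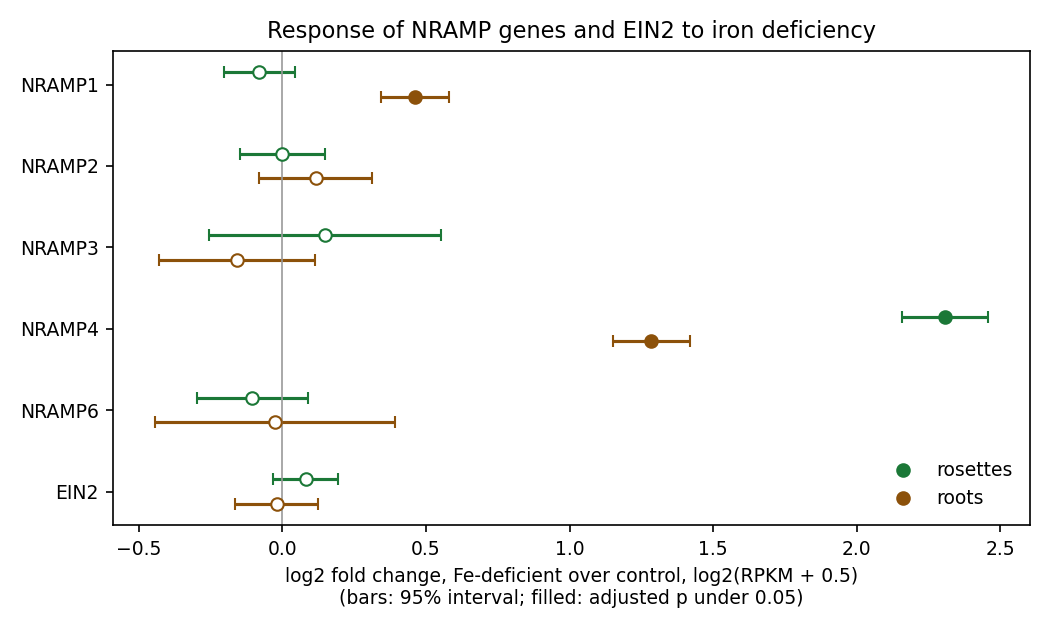
Log2 fold change of Fe-deficient over control libraries, on log2(RPKM + 0.5), for the 5 NRAMP genes tested and EIN2, in rosettes and in roots; bars are 95% intervals and filled points have an adjusted p under 0.05. NRAMP4 is filled in both organs at 2.31 and 1.28, NRAMP1 in roots at 0.46, and every other interval includes 0.

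NRAMP3, the vacuolar carrier that acts redundantly with NRAMP4, was not called in either organ. In rosettes it was at 7.62, 5.99 and 9.73 RPKM in controls and at 8.25, 8.89 and 8.44 RPKM under iron deficiency. The Fe-deficient libraries all lay within the range of the controls (log2 fold change 0.15, 95% interval -0.25 to 0.55, adjusted p 0.715). In roots it was at 10.26, 10.45 and 13.39 RPKM in controls and at 9.79, 9.92 and 10.51 RPKM under iron deficiency. These groups overlapped too, and the log2 fold change was -0.16 (95% interval -0.43 to 0.11, adjusted p 0.495). The upper bounds of 0.55 and 0.11 lie below the NRAMP4 changes of the same organs.

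The balance of the vacuolar pair was compared through a ratio. The ratio of NRAMP4 to NRAMP3 RPKM was 2.63, 3.06 and 2.05 in control rosettes and 12.1, 10.4 and 12.2 in Fe-deficient rosettes. In roots it was 2.22, 2.23 and 1.69 in controls and 6.08, 5.48 and 5.31 under iron deficiency. Every Fe-deficient ratio was above every control ratio of its organ. An exact permutation test of the log2 ratio, two-sided, gave p 0.1 in each organ, which is the smallest p that 3 against 3 libraries allow.

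NRAMP2, the trans-Golgi network carrier, changed little. In rosettes its libraries ran from 12.22 to 12.96 RPKM in controls and from 12.05 to 13.09 RPKM under iron deficiency, with a log2 fold change of -0.00078 (95% interval -0.15 to 0.15, adjusted p 1). In roots it ran from 15.86 to 16.65 RPKM and from 15.91 to 18.79 RPKM, with a log2 fold change of 0.12 (95% interval -0.081 to 0.31, adjusted p 0.486). The groups overlapped in both organs.

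NRAMP6 was likewise not called. In rosettes it was at 13.12, 13.84 and 13.85 RPKM in controls and at 14.03, 12.04 and 11.87 RPKM under iron deficiency (log2 fold change -0.10, 95% interval -0.30 to 0.089, adjusted p 0.581). In roots it was between 1.21 and 1.35 RPKM in controls and between 1.04 and 1.64 RPKM under iron deficiency, with the widest interval of the family, from -0.44 to 0.39. NRAMP6 overlaps CCR1 (AT1G15950), on the opposite strand, over 516 bases. CCR1 was at 91.6 ± 5.38 RPKM in control roots, far above the level of NRAMP6, and reads from their overlap cannot be told apart either. EIN2 stood at 33.3 ± 0.99 and 35.3 ± 1.04 RPKM in control and Fe-deficient rosettes and at 52.5 ± 2.61 and 51.7 ± 2.24 RPKM in roots, and was called in neither organ (adjusted p 0.454 and 0.891).

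Summed over the 6 genes, NRAMP transcripts came to 83.3 ± 2.97 RPKM in control and 160 ± 6.03 RPKM in Fe-deficient rosettes. In roots the sums were 119 ± 3.14 and 179 ± 2.2 RPKM, and neither organ's groups overlapped. An exact permutation test, two-sided, again gave the smallest possible p of 0.1 in each organ. The leading member of rosettes was not the same in the 2 conditions. NRAMP1 held 35.7 ± 1.41% of the sum in control rosettes and NRAMP4 23.3 ± 0.492%, whereas under iron deficiency NRAMP4 held 61.3 ± 1.54% and NRAMP1 17.6 ± 0.37%. In roots NRAMP1 stayed ahead, with 56.4 ± 0.721% in control and 52 ± 0.475% in Fe-deficient libraries, and NRAMP4 went from 19.2 ± 0.556% to 31.7 ± 1.09%. A share falls when another member rises, so the smaller shares of NRAMP2, NRAMP3 and NRAMP6 under iron deficiency do not show falls in their own levels.

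**Figure D3:**
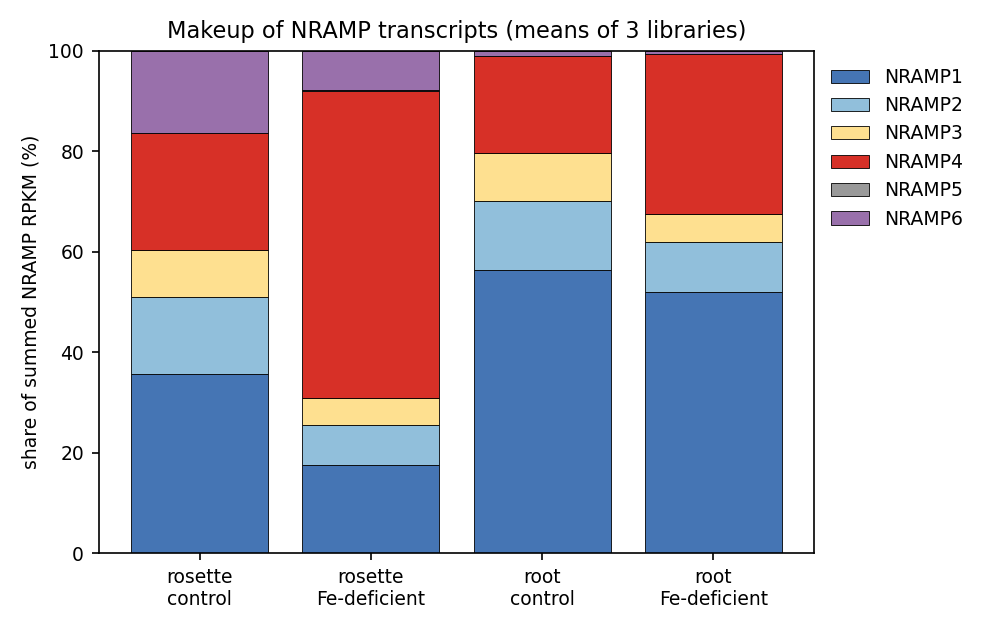
Share of each gene in the summed RPKM of the 6 NRAMP genes, in percent, as the mean of 3 libraries in each of the 4 groups. NRAMP4 holds 23.3% in control and 61.3% in Fe-deficient rosettes, and 19.2% and 31.7% in roots, while NRAMP1 keeps the largest share in roots.

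Genes whose profile was most like that of a responding member were ranked by Pearson's r over the 12 libraries, after the control mean of each organ had been subtracted, among the 17679 other genes tested in both organs. The libraries fall into the 4 groups, so r mainly reflects the 2 treatment effects. The closest to NRAMP4 were ORG1 (AT5G53450, r 0.997), AT1G47407 (r 0.996) and BHLH101 (AT5G04150, r 0.995), the last encoding an iron-deficiency transcription factor of bHLH subgroup Ib. All 3 rose more than NRAMP4 did, by 4.40, 6.41 and 6.83 in rosettes and by 2.35, 3.82 and 3.86 in roots on the log2 scale. Their profiles were chosen for likeness to NRAMP4, so these values are a description. The rosette values of AT1G47407 and BHLH101 depend on the pseudocount, with 5.81 to 7.20 and 6.14 to 7.91 between pseudocounts of 1 and 0.1. The closest to NRAMP1 were AT4G33666 (r 0.986), AT2G05830 (r 0.986), which the reference annotates as a 5-methylthioribose-1-phosphate isomerase of methionine salvage, and EMB1030 (AT5G22800, r 0.982), an alanyl-tRNA synthetase gene. These 3 rose in roots, by 2.44, 1.25 and 0.68, and none was called in rosettes. The call of EMB1030 was lost without control replicate 2 or Fe-deficient replicate 1 of roots, at adjusted p 0.0503 and 0.0506. Between NRAMP1 and NRAMP4 themselves r was 0.083.

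Upstream sequence was searched for the E-box, CANNTG, the core that bHLH factors recognise, and for its form CACGTG, the G-box. Both read the same on the 2 strands, and every G-box is also an E-box. Within 250 bases before the annotated start, NRAMP1, NRAMP4 and NRAMP5 held 1 E-box each and NRAMP2, NRAMP3 and NRAMP6 none, where 55.3% of 27443 protein-coding genes hold at least 1. The matches of the 2 responding genes are shown with their flanks, 30 bases each on the gene's strand, with the E-box in capitals.
NRAMP4: agtgatgtaatgCAATTGagatatgaggac
NRAMP1: actttgataaaaCAACTGagaaagaaaaga
They lie at chr5:26861234-26861263 and chr1:30376081-30376110 (TAIR10.1), with the E-box beginning 20 and 26 bases before the start. Within 1000 bases NRAMP4 held 4 E-boxes, NRAMP6 3, NRAMP1 and NRAMP2 2 each, and NRAMP3 and NRAMP5 1 each, a window in which 96.2% of genes hold at least 1. No member held a G-box in that window, as 14.8% of genes do. These matches describe the letters in the windows only.

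The other side of the vacuole membrane was examined through a list of 10 metal carrier genes, drawn up for iron and manganese loading of the vacuole. Which metals each of them carries was not tested. In rosettes 4 were tested and 3 were called, all lower, with a median log2 fold change of -1.69, where 1.28% of all rosette genes were called lower. They were the vacuolar iron transporter-like genes VTL1, VTL2 and VTL5, with log2 fold changes of -2.85, -2.23 and -1.15 (adjusted p 0.00105, 0.00801 and 0.00324). The size for VTL1 depends on the pseudocount, from -2.30 with 1 to -3.66 with 0.1, since its Fe-deficient level is below 1 RPKM. VTL1, for one, was between 4.31 and 7.38 RPKM in control rosettes and between 0.33 and 0.39 RPKM in Fe-deficient rosettes. In these rosettes NRAMP4, which moves metal out of the vacuole, was called higher and 3 loaders lower. NRAMP3, the other vacuolar exporter, and CAX2, the other loader tested, were not called, and 6 of the 10 loaders were not tested. The list was chosen with earlier results of these data known, so this is a description.

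In roots 7 of the 10 were tested, and 3 were called lower and 3 higher, with a median of 0.067. Of all root genes 2.35% were called lower and 3.52% higher. VTL1, VTL2 and VTL5 fell again, by 1.90, 2.16 and 1.04 on the log2 scale. The call of VTL2 was lost without control replicate 2 in either organ (adjusted p 0.0529 in rosettes and 0.0515 in roots) and without the filter on low values (0.0602 and 0.0794). The 3 that rose were MTP8, a vacuolar carrier of manganese and iron, FPN2, a ferroportin of the root vacuole, and CAX4, a vacuolar cation/proton exchanger. MTP8 stood at 0.473 ± 0.346 RPKM in control and 19.5 ± 2.8 RPKM in Fe-deficient roots, and its log2 fold change was 4.41 (adjusted p 0.000162), or 3.82 and 5.27 with pseudocounts of 1 and 0.1. FPN2 went from 10.2 ± 1.61 to 77.3 ± 5.25 RPKM and CAX4 from 6.75 ± 0.375 to 17.7 ± 2.36 RPKM. None of the 3 exceeded 0.55 RPKM in any rosette library, and VIT1, the vacuolar iron transporter of seeds, did not exceed 0.44 RPKM in any library of either organ.

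Of 12 other manganese transporters tested in each organ, 1 was called in each, where 1.96% of all rosette and 5.87% of all root genes were. It was the same gene, PML5 (AT1G68650), a member of the UPF0016 family to which manganese transporters of the chloroplast and Golgi belong. It fell in rosettes, from 10.7 ± 0.773 to 0.767 ± 0.603 RPKM, and in roots, where 19 ± 0.8 RPKM in controls stood against 7.24 ± 1.01 RPKM, with log2 fold changes of -3.25 and -1.34 (adjusted p 0.00564 and 0.000813). The rosette value was -2.78 and -3.86 with pseudocounts of 1 and 0.1. The other 11, among them the endoplasmic reticulum and Golgi pumps ECA1 and ECA3 and the chloroplast carriers BICAT1 and BICAT2, were not called, and the list's medians were 0.041 and -0.10. At an unadjusted p under 0.05 lay 3 of 12 in rosettes and 5 of 12 in roots, beside 16.2% and 21.3% of all genes. In roots the count of calls was 2 without control replicate 1 and in one fit of all 12 libraries.

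The list of iron supply genes gives the scale of the response. In roots all 8 of the list were called higher, with a median log2 fold change of 2.83, where 3.52% of all root genes were. In rosettes 5 of 6 tested were called higher, with a median of 2.58, where 0.679% of all rosette genes were. This list too was chosen with earlier results of these data known, so its counts are a description. The rosette change of NRAMP4, 2.31, was close in size to those of FRO3, NAS4 and OPT3 (2.50, 2.61 and 2.55). These encode a mitochondrial ferric reductase, a nicotianamine synthase and a phloem iron transporter. The NRAMP4 change was smaller than those of IRT1 and FRO2 (3.48 and 2.96) and larger than that of AHA2 (0.13, not called). IRT1 and FRO2 ranged from 2.70 to 5.04 and from 2.56 to 3.45 in rosettes under the alternatives. In roots FRO3, NAS4 and OPT3 rose by 2.89, 2.38 and 2.78 where NRAMP4 rose by 1.28. The organ difference was not called for NAS4 (0.23, 95% interval -0.096 to 0.55) or OPT3 (-0.23, 95% interval -0.59 to 0.12). For FRO3 it was -0.39 (adjusted p 0.00269), opposite in sign to that of NRAMP4. Of 6 list genes tested in both organs 4 were called, all more negative in rosettes, where 2.09% of all genes were. Besides FRO3 these were FRO2, IRT1 and AHA2, at -2.77, -2.14 and -0.67. The count was 3 or 4 under the alternatives, and IRT1 was not called with a pseudocount of 0.1 (-0.61). The root change of NRAMP1, 0.46, was smaller than that of IRT1, the main iron importer of the root surface, at 5.62.

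Of 6 genes for manganese-dependent or manganese-binding proteins, none was called in rosettes with limma, where none lay at an unadjusted p under 0.05 (16.2% of all rosette genes did), and the median was -0.046. MSD1, the mitochondrial manganese superoxide dismutase, was at 158 ± 9.27 and 164 ± 8.12 RPKM there. In roots 2 of 5 tested were called lower, where 2.35% of all root genes were. At an unadjusted p under 0.05 lay 3 of 5, beside 21.3% of all root genes. The 2 called were PSBO1 and PSBP1 of the photosystem II oxygen-evolving complex. They were lower by 0.56 and 0.53 on the log2 scale (adjusted p 0.0272 and 0.0251). Both calls were lost without control replicate 2 or 3 or Fe-deficient replicate 2 or 3, at adjusted p of 0.0694 to 0.115, and with the replicate number as a block, at 0.0703 and 0.0614, and without the filter, at 0.115 and 0.101. These 2 genes moved with the green-tissue markers of the roots given above.

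**Figure D4:**
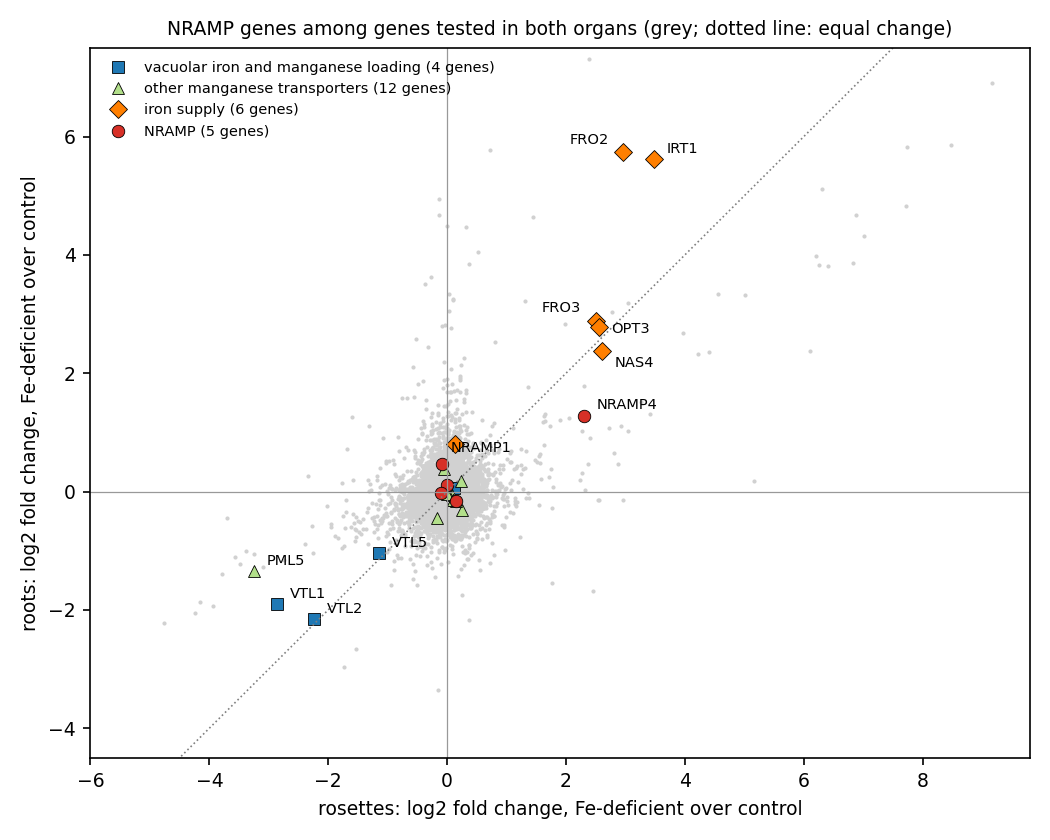
Log2 fold change under iron deficiency in rosettes (horizontal) and roots (vertical) for the 17680 genes tested in both organs, with NRAMP genes and 3 lists of metal transport genes in colour; the dotted line marks equal change. NRAMP4 lies below the line at 2.31 and 1.28, NRAMP1 above the centre at -0.080 and 0.46, and the 3 VTL genes and PML5 are lower in both organs.

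The authors' deposited table, from the same libraries, also gives log2 fold changes and p-values for the members. Its expression filter marks NRAMP5 in both organs and NRAMP6 in roots as low, whereas NRAMP6 was tested in roots here. For NRAMP4 the authors' deposited table lists log2 fold changes of 2.34 in rosettes and 1.3 in roots, each with a p-value listed as 0. For NRAMP1 in roots the authors' deposited table lists 0.46 with a p-value of 0.04, and the p-values it lists for the other members and for EIN2, and for NRAMP1 in rosettes, are 0.78 or more.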

How the data were processed

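The authors deposited 1 table per organ, each with 33611 rows, of which 4 are transgene features left out here. No header states a unit, and the deposited values were read as RPKM equalised across the 6 libraries of a table, which can narrow the spread of highly expressed genes and removes a change common to most genes. Read counts could not be recovered: 28.3% of rosette and 21.2% of root ratios among low values lay within 0.1 of a whole number. The submitters' processing notes name Trimmomatic 0.35, Bowtie2 2.0.6, edgeR 3.12.1, limma 3.26.9 and TAIR10. Counting and its use of strand are not given in the sources used here. The deposited tables also hold the authors' p-value (a Z-test, per the file headers) and log2 fold change, and adjustment of that p-value is not stated.

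Tests covered genes averaging 1 RPKM or more across an organ's 6 libraries (19006 for rosettes, 19932 for roots). Values were compared as log2(RPKM + 0.5) with limma 3.58.1 in R 4.3.3 (eBayes with a trend, two-sided, Benjamini-Hochberg adjustment over all genes tested). Organ differences combined the moderated errors of the 2 fits, by Satterthwaite's approximation. The fit was also run on simulated data with independent normal noise, which does not copy the equalising of values within a table. The results of that run are not given here. Alternatives changed the pseudocount, filter, weights, trend, scaling, block and libraries. Sequences and gene models come from RefSeq TAIR10.1, which uses the same kind of locus identifier as the tables, read with Biopython 1.88. Some of its loci have no row there, such as AT1G05213, which overlaps NRAMP6 over 66 bases. The overlaps given are those of this annotation and may differ from those of the models counted. All 6 members matched. The named genes are all members, EIN2, list genes called in an organ, and the 3 genes most like each called member. Members and lists were chosen with earlier results of these data known.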

Additional observations from a re-analysis of the deposited data

Results flagged for a closer look

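The responses of NRAMP1 and NRAMP4 differed between rosettes and roots by a test of the difference itself. For NRAMP1 the rosette minus root log2 fold change was -0.54 (adjusted p 0.000583), with -0.080 in rosettes and 0.46 in roots. For NRAMP4 it was 1.02 (adjusted p 1.04e-05), with 2.31 in rosettes and 1.28 in roots.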

How the results depend on the processing

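The number of NRAMP genes called was 1 in rosettes and 2 in roots under each of 15 alternatives per organ, and 2 for the organ difference under each of 21. NRAMP4 ranged from 2.27 to 2.35 in rosettes (highest adjusted p 0.000874) and from 1.25 to 1.31 in roots (0.00117), and NRAMP1 in roots from 0.43 to 0.48 (0.0207). No called value changed sign. Without a filter NRAMP5 was not called (adjusted p 1 and 0.816), and a minimum of 5 RPKM left NRAMP6 untested in roots. The counts of all genes behind the background moved more. From 372 in rosettes they went to 188 with a replicate block, 559 with array weights and 167 to 330 without 1 library. From 1170 in roots they went to 692 without a filter and 523 to 971 without 1 library, and the share of higher calls went from 59.9% to 47.1% in one fit of all 12 libraries, and to 75.1% and 70.6% without control roots replicate 2 and 3.

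Replicate numbers are not said to pair the samples, so they were left out of the main fit. Deviations of same-numbered libraries correlated between -0.16 and 0.247 in rosettes and between -0.0033 and 0.103 in roots. Those of differently numbered libraries correlated between -0.309 and 0.244 in rosettes and between -0.087 and 0.084 in roots. With so few libraries these values do not settle whether samples were paired. With the replicate block NRAMP4 had adjusted p of 0.000874 and 0.00112 and NRAMP1 0.0162 in roots. Unknown depth limits NRAMP5 and the root values of NRAMP6.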
